A study of Mus musculus with 10 samples.

Results

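The genes described here encode 7 growth factor ligands of the epidermal growth factor (EGF) family (Ereg, Areg, Hbegf, Tgfa, Btc, Epgn and Nrg1) and 3 of their ERBB receptors (Egfr, Erbb2 and Erbb3). They were taken by gene symbol from a bulk RNA sequencing count table with 25229 rows, and all 10 were found in it. The table holds 10 libraries from adipose stem and precursor cells (ASPCs) of WT mice. The cells were sorted as CD45-CD31-Pdgfra+ from perigonadal white adipose tissue, grown to confluence without passaging, and lysed after 6 hr with vehicle (DMSO, 5 libraries) or with 100 nM of the AHR ligand FICZ (5 libraries). Each group carries the replicate numbers 1 to 5, and the sources used here do not say whether a number stands for 1 animal or culture, nor give age or sex for these libraries. The culture medium of both groups contained serum and FGF. Where numbers mark no separate animals, p-values measure only the spread between libraries, which may be technical.

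EGF family ligands are made as membrane-anchored precursors, which metalloproteases cut so that the EGF-like domain is released. The freed ligand joins ERBB receptors into dimers, whose kinase activity feeds the RAS-ERK cascade. EGFR binds EGF, TGF-alpha, amphiregulin, epiregulin, betacellulin, HB-EGF and epigen, ERBB3 binds neuregulins and has little kinase activity of its own, and ERBB2 has no known ligand and acts as a dimer partner. In fibroblast-like cells several of these ligand genes are themselves raised by ERK signalling.

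None of the 9 members that were counted highly enough to be tested passed the threshold with FICZ, an adjusted p of 0.05 in edgeR's quasi-likelihood test over 14251 genes. That share is to be read against 0.0211% of all genes tested (3 genes: Cyp1a1, Ahrr and Tiparp, all higher with FICZ). With the replicate number as a block Tiparp no longer passed (adjusted p = 0.0509). Cyp1b1, also an AHR target, was higher with FICZ in all 5 pairs without overlap of the groups (log2 fold change 0.62). It did not pass in edgeR (adjusted p = 0.147, and 0.0757 with the block) but passed with DESeq2 (adjusted p = 3.33e-05). Ereg, the gene of epiregulin, was the only member whose FICZ library exceeded its DMSO partner in each of the 5 pairs with a shared number. Over all genes tested, 4.32% were higher in all 5 pairs. The fitted fold of Ereg was 1.45, and Ereg did not pass the threshold in any fit made here. Erbb3 had the lowest fitted fold, 0.462, and its level was high in the DMSO libraries that held the most liver transcripts. The part of liver transcripts in the Erbb3 values was not tested. For Ereg, Areg, Hbegf and Btc the ratio of the highest to the lowest library of a group exceeded the fold between the groups. The same held for Tgfa, Nrg1 and Egfr, and in DMSO also for Erbb2 and Erbb3. The share of all genes for which it holds was not computed. Between 91.7% and 97.6% of the within-group spread of Ereg, Areg, Hbegf and Btc lay between replicate numbers. Egfr had 93.1%, and the median over all genes tested was 64.2%.

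Total counts ranged from 38328611 to 50210111 per library, at which 3 counts, the floor used here for detection, correspond to between 0.0603 and 0.0787 CPM (counts scaled to library size with TMM factors). The floor covers counting error only. All 9 mesenchymal marker genes were detected, and Pdgfra, used in the sort, had at least 1181 CPM. Ptprc and Pecam1, the genes of CD45 and CD31, had at most 1.70 and 1.62 CPM. Liver transcripts were present throughout: 12 hepatocyte genes summed to between 1298 and 8686 CPM in DMSO and between 1269 and 1939 CPM in FICZ, none was at 0, and all 12 were lower with FICZ at an unadjusted p of 0.05 or less without a block, as were 3.49% of all genes tested. With the replicate block their unadjusted p-values lay between 0.0960 and 0.140, and all 12 were higher with FICZ in the pairs numbered 2 and 3. DMSO replicate 5 held the most. Of the other marker lists, 8 macrophage genes summed to between 23.9 and 51.8 CPM, 5 endothelial genes to between 63.7 and 86.2 CPM and 8 mesothelial genes to between 72.9 and 136 CPM. Most of the endothelial sum was Tek, at 52.9 to 76.7 CPM, and no other gene of that list exceeded 7.90 CPM. Wt1, at 57.4 to 81.6 CPM, was the largest part of the mesothelial sum. Krt8 and Krt18 reached 26.6 and 23.1 CPM, and the remaining mesothelial genes stayed at or below 2.85 CPM. The 4 epithelial genes summed to at most 2.63 CPM and the 5 adipocyte genes to at most 21.9 CPM, with Lep at 0 in every library. In edgeR without a block, some of these genes were also lower with FICZ at an unadjusted p of 0.05 or less. They were 2 of 7 macrophage (Clec4f and C1qa), 2 of 8 mesothelial (Krt8 and Krt18), 1 of 1 epithelial (Cdh1) and 1 of 4 adipocyte genes tested (Cidec), and 0 of 5 endothelial. No gene of these lists was higher at that level, as were 1.33% of all genes tested. The log2 fold changes of the named genes lay between -1.33 (Cidec) and -1.02 (Cdh1). The other tested macrophage, mesothelial and adipocyte genes lay between -0.94 (Adgre1) and 0.31 (Upk3b), with Wt1 at -0.04, Csf1r at 0.07 and Adipoq at -0.09. In the pair numbered 5 the named genes were lower by 1.91 (C1qa) to 2.82 (Cdh1), and Alb by 2.34. The part of liver transcripts in these values was not tested. In bulk libraries, fewer cells of a type and less RNA per cell cannot be told apart.

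The members differed widely in level. Divided by the length of their exons, mean levels ran from high to low in the order Egfr, Erbb2, Ereg, Btc, Tgfa, Hbegf, Nrg1, Erbb3, Areg and Epgn. Egfr had between 20.5 and 32.2 CPM per kb, above the highest Erbb2 value of 8.93 CPM per kb, so that these neighbours did not overlap. Erbb2 reached down to 5.34 CPM per kb and overlapped Ereg, which spanned 2.24 to 15.2 CPM per kb. The ranges of Ereg and Btc overlapped as well, yet Ereg was the higher of the pair in each library, by at least 1.09 times. Btc, with 1.54 to 5.79 CPM per kb, lay above Tgfa, with 0.6996 to 1.12 CPM per kb. From Tgfa downwards each gene overlapped the next in the order. The most abundant receptor was therefore Egfr and the most abundant ligands were Ereg and Btc, both of which bind it.

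**Figure D1:**
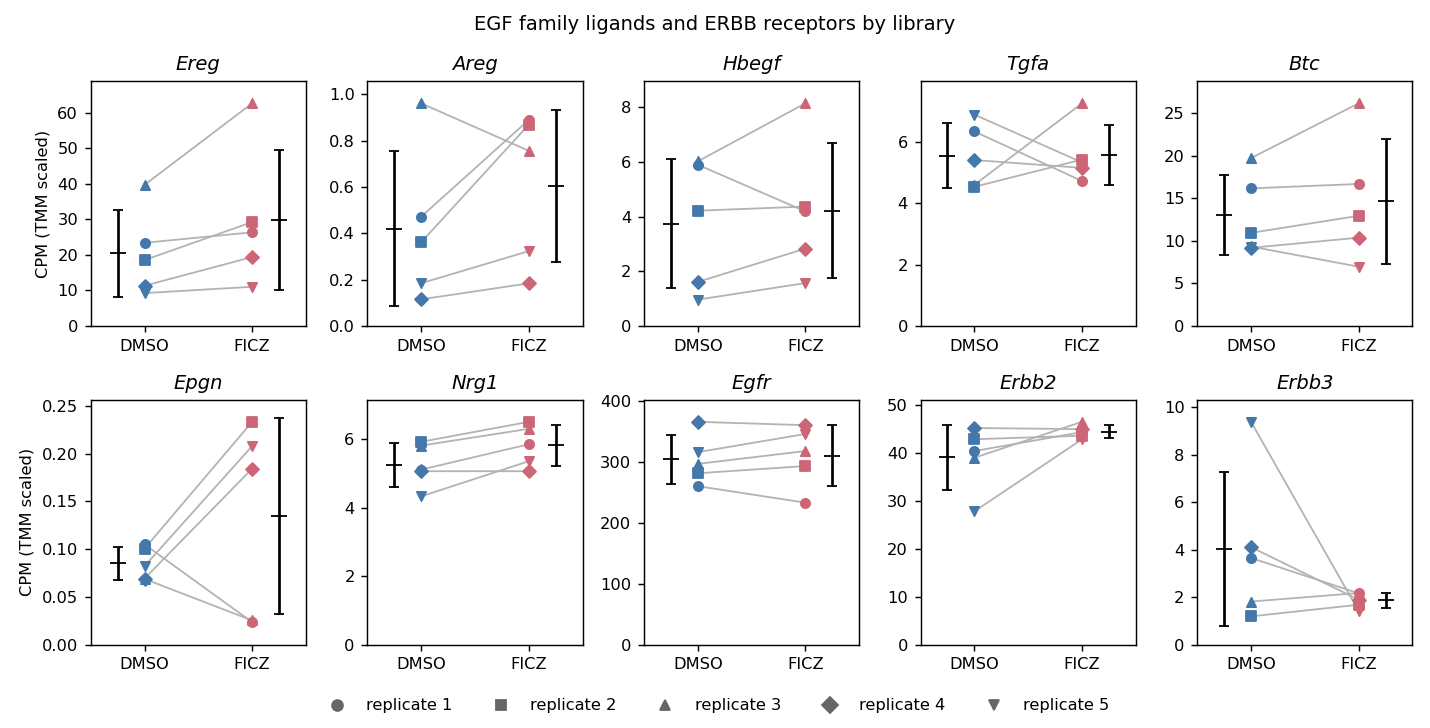
Level of each of the 10 members in CPM (vertical axis, linear from 0) in DMSO and FICZ; a marker is 1 library, its shape gives the replicate number, grey lines join same-numbered libraries, and black bars show the mean and SD of 5 libraries. For Ereg all 5 lines slope upwards, with DMSO between 9.26 and 39.7 CPM and FICZ between 11.04 and 62.7 CPM, and the steepest Erbb3 line joins 9.38 and 1.41 CPM in the pair numbered 5.

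Egfr lies on chromosome 11 (GRCm38, 16752203 to 16918158). Its levels in DMSO replicates 1 to 5 were 260, 281, 296, 365 and 315 CPM, and in FICZ replicates 1 to 5 they were 233, 293, 317, 360 and 345 CPM. The groups overlapped almost completely, and in both of them replicate 4 was highest, followed by 5, 3, 2 and 1. The log2 fold change was 0.03 (standard error, SE, 0.13, edgeR adjusted p = 0.999), with a 95% interval from -0.25 to 0.31. Blocking on the replicate number narrowed the interval to a span between -0.13 and 0.18. Of the 50-base words in Egfr transcripts, 0.151% also occur in transcripts of other genes, and for the other 9 members no such word was found.

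Erbb2 on chromosome 11 (98412470 to 98437716) had 40.4, 42.9, 39.0, 45.2 and 27.8 CPM in DMSO replicates 1 to 5. It had 44.4, 43.6, 46.5, 44.98 and 42.9 CPM in the FICZ replicates. The FICZ libraries were tightly grouped, with a mean of 44.5 ± 1.40 CPM (SD, n = 5) against 39.1 ± 6.72 CPM in DMSO, where replicate 5 was low. The log2 fold change was 0.19 (SE 0.12, edgeR adjusted p = 0.999), and an exact permutation test on log2 CPM (two-sided) gave p = 0.0794. Without DMSO replicate 5 the log2 fold change was 0.0864 (exact permutation p = 0.127), and it was 0.0757 with Alb as a covariate. Exons of Mien1 on the opposite strand overlap 9 bases of Erbb2, and how strand was counted is not given in the sources used here.

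Erbb3 on chromosome 10 (128567523 to 128589652), the gene of the neuregulin receptor, showed the largest fitted difference of the 9. Its counts in DMSO replicates 1 to 5 were 139, 59, 79, 178 and 457, and in the FICZ replicates 92, 79, 86, 82 and 61. In CPM these are 4.02 ± 3.23 in DMSO and 1.86 ± 0.324 in FICZ (SD, n = 5 each). DMSO replicates 5, 4 and 1 were above all FICZ libraries, and DMSO replicates 2 and 3 lay among or below them. The log2 fold change was -1.11 (SE 0.46), with an unadjusted p of 0.0335 and an adjusted p of 0.999 in edgeR's test. Erbb3 was the only member at an unadjusted p of 0.05 or less in that fit, where 3.49% of all genes were lower and 1.33% higher at that level. Alb, the albumin gene, had 4782, 1740 and 1921 CPM in DMSO replicates 5, 4 and 1, and between 682 and 1085 CPM in the other 7 libraries. The log2 fold change of Erbb3 was -0.53 without DMSO replicate 5 (edgeR adjusted p = 1.000), -0.78 with the replicate block, and -0.06 (unadjusted p = 0.778) with Alb (log2 CPM) added as covariate. Alb itself was lower with FICZ (log2 fold change -1.09, edgeR unadjusted p = 0.0327), so a fit with Alb as covariate cannot separate it from the treatment. The part of liver transcripts in the Erbb3 values was not tested. Erbb3 was lower with FICZ in 3 of the 5 pairs and higher in the pairs numbered 2 and 3.

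**Figure D2:**
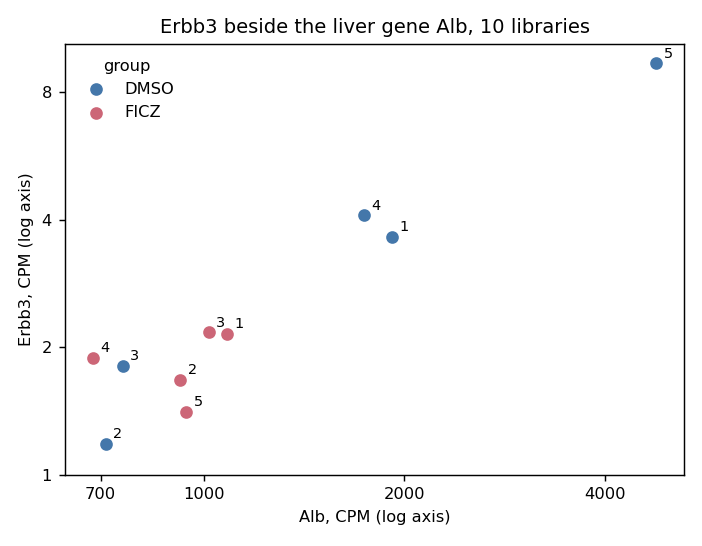
Erbb3 (vertical axis, CPM, log scale) against Alb (horizontal axis, CPM, log scale) in the 10 libraries, with the replicate number beside each point. The 3 DMSO libraries with Alb at 1740 CPM or more have the 3 highest Erbb3 values, between 3.65 and 9.38 CPM, and the other 7 libraries lie between 1.19 and 2.17 CPM.

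Among the ligands, Ereg on chromosome 5 (91074622 to 91093646) was the most abundant per kb. Its levels in DMSO replicates 1 to 5 were 23.4, 18.6, 39.7, 11.3 and 9.26 CPM. In FICZ replicates 1 to 5 they were 26.4, 29.3, 62.7, 19.4 and 11.04 CPM. Replicate 3 was highest and replicate 5 lowest in both groups, the groups overlapped, and within each pair the FICZ library was the higher. The log2 differences in pairs 1 to 5 were 0.17, 0.65, 0.66, 0.77 and 0.25. Across all tested genes, 4.32% were higher and 2.81% lower in all 5 pairs. Without a block the log2 fold change was 0.54 (SE 0.47, 95% interval -0.49 to 1.57, edgeR adjusted p = 0.999). With the replicate number as a block it was 0.51, with a standard error of 0.11 and an interval from 0.25 to 0.76.

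In that blocked fit the unadjusted p of Ereg was 0.00198 and its adjusted p 0.604 with edgeR, and DESeq2 with the block gave an adjusted p of 0.0755. It was 1 of 9 members higher at an unadjusted p of 0.05 or less with the block, where none was lower, and over all genes tested 2.48% were higher and 2.17% lower at that level. At the adjusted threshold the blocked fit placed 0.0561% of genes (8), with no member among them. Leaving out the pair numbered 1, 2, 3, 4 or 5 gave a blocked log2 fold change of 0.58, 0.47, 0.46, 0.44 or 0.56. Without a block the value depended on replicate 3, which was high in both groups, and ranged from 0.07 without FICZ replicate 3 to 0.93 without DMSO replicate 3. With Alb as a covariate it was 0.31. The antisense transcript Gm19610 shares 141 of the 4128 exonic bases with Ereg.

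**Figure D3:**
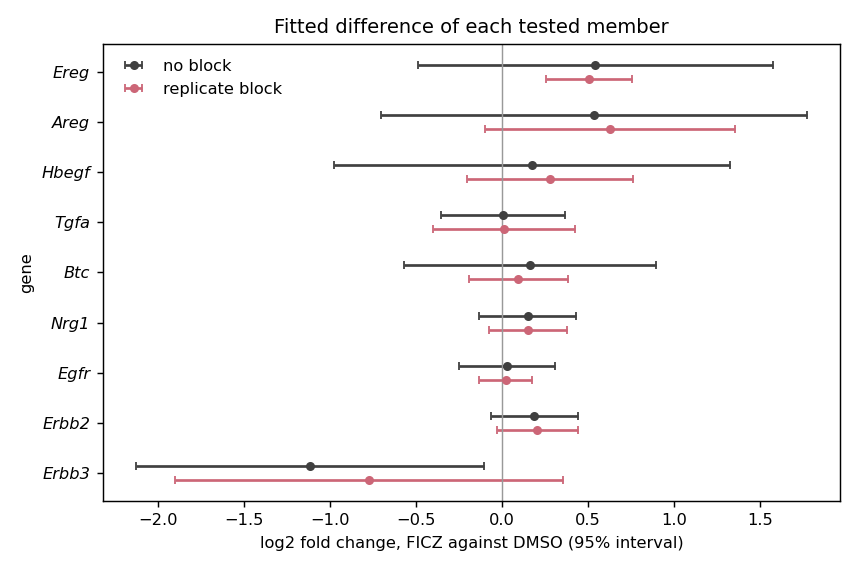
Log2 fold change of FICZ against DMSO (horizontal axis) for the 9 tested members, with 95% intervals from edgeR without a block (dark) and with the replicate block (red). The interval of Ereg spans 0 without the block and runs from 0.25 to 0.76 with it, and that of Erbb3 runs from -2.13 to -0.10 without the block and reaches 0.35 with it.

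Epgn, Ereg, Areg and Btc lie together on chromosome 5 within 375531 bases, with 39406 bases between Epgn and Ereg, 45952 between Ereg and Areg, and 208828 between Areg and Btc. No other protein-coding gene is annotated in between. Promoter windows (250 bases before and 50 after the start, RefSeq, GRCm38.p6) were found for 6 of the 10 members: Areg, Btc, Epgn, Tgfa, Egfr and Erbb2. Those of Areg and Btc are printed because their levels moved with those of Ereg from library to library, as described further on. They are read 5′ to 3′ on the strand of the gene, Areg at chr5:91139349-91139648 on the plus strand and Btc at chr5:91402945-91403244 on the minus strand. Capitals mark matches on either strand to GCGTG, the core of the element that AHR binds (the AHRE), to TGACGTCA, the cyclic AMP response element (CRE), and to the TATA box word TATAAA, none of which overlap.

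Areg: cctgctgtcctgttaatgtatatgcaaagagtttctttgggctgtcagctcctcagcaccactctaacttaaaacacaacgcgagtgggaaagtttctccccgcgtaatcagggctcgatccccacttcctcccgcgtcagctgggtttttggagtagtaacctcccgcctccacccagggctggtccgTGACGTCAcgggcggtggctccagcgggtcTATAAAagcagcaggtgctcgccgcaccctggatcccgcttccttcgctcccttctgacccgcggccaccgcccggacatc

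Btc: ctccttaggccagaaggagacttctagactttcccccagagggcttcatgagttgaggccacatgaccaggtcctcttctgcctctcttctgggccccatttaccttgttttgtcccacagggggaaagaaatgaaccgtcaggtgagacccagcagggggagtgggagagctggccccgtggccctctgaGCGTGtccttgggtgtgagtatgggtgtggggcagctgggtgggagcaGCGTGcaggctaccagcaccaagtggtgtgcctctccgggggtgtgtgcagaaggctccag

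The Btc window holds the AHRE core at 2 places, 59 and 11 bases before the start, and no CRE or TATA word. The Areg window holds no AHRE core, 1 CRE starting 61 bases before the start and 1 TATA word starting 31 bases before it. Tgfa and Erbb2 hold 1 AHRE core each and Epgn and Egfr none, so that 3 of the 6 windows hold it, against 32.4% of the 32851 windows in the RefSeq table. A CRE occurs in 1.79% of all windows and the TATA word in 13.6%. The AP-1 word TGANTCA was found in none of the 6 windows and in 7.81% of all. A match is a string of letters and not a measured binding site.

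Areg, the gene of amphiregulin (91139599 to 91148432), had few counts in every library. It had 18, 18, 42, 5 and 9 counts in DMSO replicates 1 to 5 and 38, 41, 30, 8 and 14 in the FICZ replicates. It was higher with FICZ in 4 of 5 pairs, and the groups overlapped. The log2 fold change was 0.53 (SE 0.57, adjusted p = 0.999), and 0.63 (SE 0.31, adjusted p = 0.929) with the replicate block, both from edgeR. Its interval without a block ran from -0.70 to 1.77. The value ranged from 0.30 without DMSO replicate 4 to 1.0999 without DMSO replicate 3, was 0.95 with the block when the pair numbered 3 was left out, and 0.31 with Alb as a covariate.

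Btc, the gene of betacellulin (91357261 to 91402994), had 16.2, 10.95, 19.7, 9.19 and 9.34 CPM in DMSO replicates 1 to 5. In the FICZ replicates it had 16.7, 13.0, 26.2, 10.4 and 6.98 CPM. Replicate 3 was again highest in both groups, 4 of the 5 pairs were higher with FICZ, and the pair numbered 5 was lower by 0.42 on the log2 scale. The fitted log2 fold change was 0.16 (SE 0.33), and 0.10 (SE 0.12) with the block. Epgn, the gene of epigen (91027464 to 91035215), had between 1 and 11 counts per library and was removed by the filter on low counts. It had 3 to 5 counts in DMSO, near the floor, and 1, 11, 1, 8 and 9 in the FICZ replicates, and no change could be assessed.

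Hbegf on chromosome 18 (36504927 to 36515805), which encodes heparin-binding EGF-like growth factor, had 5.90, 4.22, 6.02, 1.61 and 0.965 CPM in DMSO replicates 1 to 5. It had 4.19, 4.37, 8.15, 2.83 and 1.57 CPM in the FICZ replicates. Replicates 4 and 5 were the lowest of both groups, and the groups overlapped. The log2 fold change was 0.17 (SE 0.52, edgeR adjusted p = 0.999), and 0.28 (SE 0.20) with the block. Its sign turned negative in 3 of the fits that left out 1 library.

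Tgfa on chromosome 6 (86195223 to 86275719), the gene of TGF-alpha, and Nrg1 on chromosome 8 (31814551 to 32884029), the gene of neuregulin 1, varied least among the ligands. Tgfa had 5.56 ± 1.05 CPM with DMSO against 5.58 ± 0.977 with FICZ (SD, n = 5). Its log2 fold change was 0.01, with a 95% interval from -0.35 to 0.37. Nrg1 ranged from 4.33 to 5.93 CPM in DMSO and from 5.07 to 6.51 CPM in FICZ and was higher in 4 of 5 pairs. Its log2 fold change was 0.15 (SE 0.13, 95% interval -0.14 to 0.43, adjusted p = 0.999). For these genes the intervals exclude a doubling. Antisense transcripts share 118 of 6490 exonic bases with Tgfa and 482 of 10351 with Nrg1.

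None of the 10 members had groups that did not overlap in log2 CPM, against 0.47% of all genes tested. The exact two-sided permutation p-values of the 10 members ranged from 0.0794 for Erbb2 to 0.937 for Tgfa, where 5 libraries against 5 allow 0.00794 at the lowest. These permutations take no account of the replicate numbers, so the spread between numbers enters the p-values. All 6 tested ligands had a fitted log2 fold change above 0, with a median of 0.17, and the 3 receptors had a median of 0.03. The median over all genes tested was 0.01, and 7666 of the 14251 genes had a value above 0.

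In both groups, the ratio of highest to lowest library exceeded the fitted fold for Ereg, Areg, Hbegf, Btc, Tgfa, Nrg1 and Egfr. A ratio of extremes and a fold between means are unlike measures. The share of all genes for which this holds was not computed, so nothing particular to the members is read from it. For Erbb2 the ratios were 1.63 in DMSO and 1.09 in FICZ against 1.14. For Erbb3 they were 7.91 and 1.54, with a fitted fold of 0.462. For Tgfa the ratio of the highest to the lowest library was 1.52 in DMSO and 1.54 in FICZ, against a fitted fold of 1.004. For Nrg1 the ratios were 1.37 and 1.29 against 1.11, and for Egfr 1.41 and 1.55 against 1.02. Within DMSO the highest library exceeded the lowest 4.29 times for Ereg, 8.35 times for Areg, 6.24 times for Hbegf and 2.15 times for Btc. In FICZ these ratios were 5.68, 4.83, 5.19 and 3.75. The fitted folds between the groups were 1.45, 1.45, 1.13 and 1.12 for these genes. DMSO replicates 3 and 1 had the highest levels of Ereg, Areg, Hbegf and Btc, and replicates 4 and 5 the lowest. FICZ replicates 4 and 5 were again the lowest of their group for these genes.

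The part of the within-group sum of squares of log2 CPM that lay between replicate numbers was 97.6% for Ereg, 93.5% for Hbegf, 93.5% for Btc, 91.7% for Areg and 93.1% for Egfr. It was 88.8% for Nrg1, 58.2% for Erbb2, 40.3% for Erbb3 and 19.7% for Tgfa. The median over all genes tested was 64.2%. A share above 90%, a limit chosen after the values were seen, was found for 5 of the 9 tested members and for 12.5% of all genes tested. Egfr varied in another order than the ligands, being highest in replicates 4 and 5, where Ereg, Areg and Hbegf were lowest. Replicates 4 and 5 thus had the least Ereg, Areg and Hbegf transcript and the most Egfr transcript in both groups. At the other end the orders were not mirrored: Ereg was highest in replicate 3, and Egfr was lowest in replicate 1. Whether same-numbered libraries are independent is not known, so the 2 groups may not be separate observations of this. What the replicate number stands for was not tested.

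**Figure D4:**
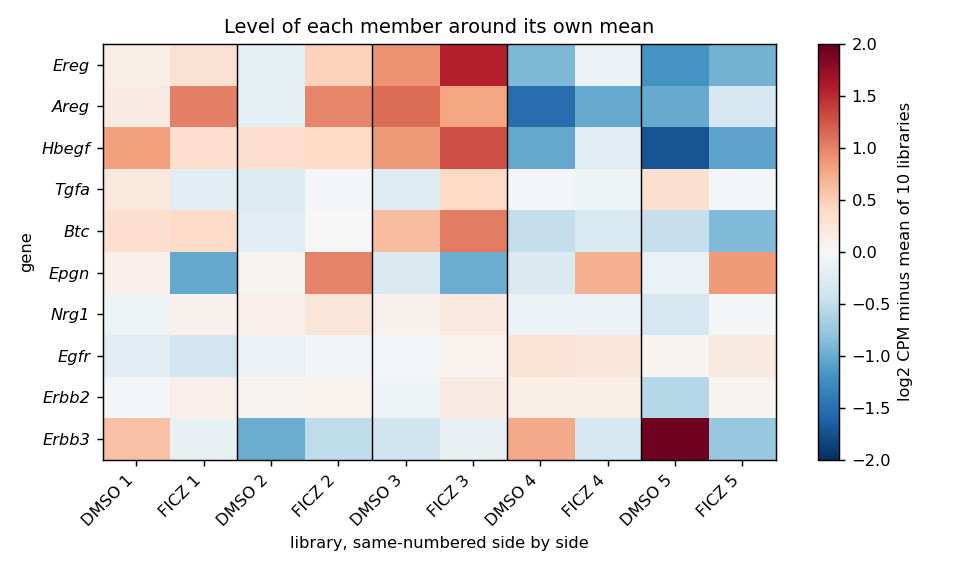
Log2 CPM of the 10 members (rows) in the 10 libraries (columns, same-numbered libraries side by side), each minus the mean of its row; red is above and blue below that mean. Ereg, Areg, Hbegf and Btc are red in the pair numbered 3 and mostly blue in the pairs numbered 4 and 5, and Erbb3 is red in DMSO replicates 1, 4 and 5.

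The other genes of the pathway were examined from a list of 59, of which 57 were tested. None passed the threshold in either direction, without or with the replicate block, and 34 had a fitted log2 fold change above 0 and 23 below 0, with a median of 0.02. Below the unadjusted limit of 0.05, 1 gene was higher and none lower without the block, and 2 higher and none lower with it. These counts of 57 are near the shares over all genes tested, 1.33% higher without and 2.48% higher with the block. The 1 gene in both fits was Ier3, an immediate-early gene that responds to ERK. It had 20.8, 16.9, 22.1, 12.8 and 15.1 CPM in DMSO replicates 1 to 5 and 24.5, 22.2, 25.3, 24.0 and 16.5 CPM in the FICZ replicates. Ier3 was higher with FICZ in all 5 pairs, as were 4.32% of all genes tested, with a log2 fold change of 0.36 (SE 0.16, unadjusted p = 0.0464, edgeR adjusted p = 0.999) and 0.37 with the block. The other was Lrig1, an inhibitor of ERBB receptors, with 122 ± 32.7 CPM with DMSO against 137 ± 34.0 with FICZ (SD, n = 5) and a blocked log2 fold change of 0.17 (unadjusted p = 0.0395).

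Ligand shedding was represented by 8 genes, with log2 fold changes between -0.23 and 0.30 and a median of 0.03. Adam9 was the most abundant of them per kb, with 562 ± 76.8 CPM with DMSO against 586 ± 53.0 with FICZ (SD, n = 5). Adam17, the main sheddase of EGFR ligands, had 116 ± 6.27 and 118 ± 7.02 CPM. The 8 receptor adaptors, led by Shc1 with 279 ± 10.7 and 280 ± 15.2 CPM, lay between -0.06 and 0.08 on the log2 scale. The 10 genes of the RAS-ERK cascade lay between -0.14 and 0.15, and Mapk3, the gene of ERK1, was their most abundant per kb, with 159 ± 25.2 and 144 ± 13.1 CPM. None of the genes of these 3 lists had an unadjusted p of 0.05 or less in either fit.

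The 14 feedback inhibitors had a median log2 fold change of -0.02 and the 14 ERK-responsive genes one of 0.06. Dusp4, a phosphatase of ERK and the most abundant feedback gene per kb, had 243 ± 84.8 CPM with DMSO against 230 ± 66.6 with FICZ (SD, n = 5). Fosl1, an AP-1 subunit and the most abundant ERK-responsive gene per kb, had 62.6 ± 28.7 and 67.7 ± 26.2 CPM. Dusp4 ranged from 137 CPM in DMSO replicate 5 to 341 CPM in DMSO replicate 3, and from 151 to 328 CPM in the same replicates of FICZ. Fosl1 was likewise highest in replicate 3 (94.98 and 104 CPM) and lowest in replicate 5 (29.7 and 30.9 CPM) of both groups. The median share of the within-group spread between replicate numbers was 82.8% for the feedback inhibitors and 86.3% for the ERK-responsive genes. It was 85.1% for ligand shedding, 70.6% for the adaptors and 72.0% for the RAS-ERK cascade, against 64.2% over all genes tested.

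The list of other ligands and receptors held 5 genes at low levels. Egf had between 21 and 55 counts per library and Nrg2, the most abundant of the 5 per kb, between 7 and 20. Nrg3 had 1 count in 1 library. Nrg4 had 20, 10, 8, 13 and 52 counts in DMSO replicates 1 to 5 and between 6 and 14 in FICZ, with a log2 fold change of -1.06 (SE 0.51, edgeR adjusted p = 0.999). Erbb4, the remaining receptor of the family, had 3, 4, 2, 6 and 17 counts in DMSO replicates 1 to 5 and 0, 2, 0, 0 and 6 in the FICZ replicates, and was under the filter on low counts. Both Nrg4 and Erbb4 were highest in DMSO replicate 5, which also held the most Alb, and the part of liver transcripts in these values was not tested. Nrg4, Egf and Erbb4 were named after their values were seen.

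**Figure D5:**
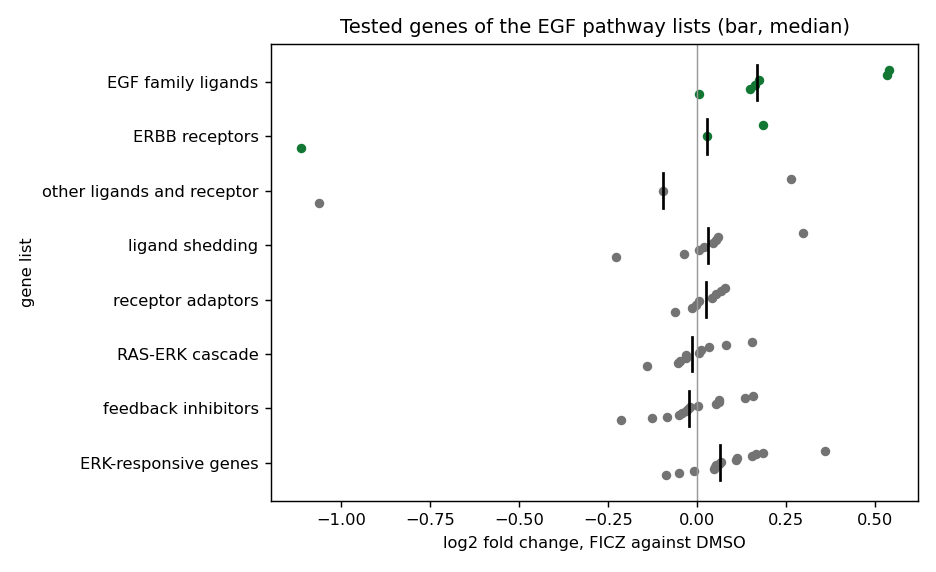
Log2 fold change of FICZ against DMSO without a block (horizontal axis) for the tested genes of the 2 member lists (green) and of 6 further lists of the EGF pathway (grey), 1 point per gene with a black bar at the median. Most genes lie within 0.3 of 0, and the points farthest to the left are Erbb3 at -1.11 and Nrg4 at -1.06.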

How the data were processed

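Bulk RNA sequencing was performed on 5 DMSO and 5 FICZ libraries of cultured ASPCs. The authors aligned reads with STAR 2.7.7 (per the labels) to mm10 and deposited un-normalized read counts for each gene symbol. The counting program, annotation, strand setting and treatment of reads with several alignments are not given in the sources used here.

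Counts were tested with edgeR 4.0.16 (quasi-likelihood, robust, R 4.3.3) with TMM normalization and filtering by expression. P-values were adjusted by Benjamini-Hochberg across the 14251 tested genes and called at 0.05. Intervals are at 95% and were derived from the quasi-likelihood F statistic. Exact two-sided permutation tests used log2 CPM with a prior count of 2 over 252 arrangements. Alternatives were other scalings, no filter, the replicate number as a block, DESeq2 1.42.0, limma-voom (limma 3.58.1), an Alb covariate and left-out libraries. The fits were tried on counts drawn with known changes.

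The pairs follow the numbers in the labels, which do not say what a number stands for. Libraries with the same number tended to deviate together (correlations of deviations across genes of 0.27, 0.28, 0.15, 0.32 and 0.24 in the 5 pairs). The mean correlation between different numbers was -0.06, and the own number gave the highest correlation in 6 of 10 comparisons. Blocked values are given where they differ. Exon lengths and positions came from GENCODE M21 (GRCm38, the assembly of mm10). Promoter windows came from RefSeq. Every member was named, together with Cyp1a1, Cyp1b1, Ahrr and Tiparp, the most abundant gene of each pathway list per kb, pathway genes at an unadjusted p of 0.05 or less with or without the block, and the 3 genes closest to Ereg, Areg and Hbegf. Adam17 was named for its role. The members and lists were chosen with earlier results of these data known. Fits without both libraries of 1 pair were partly added after the values were seen.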

Additional observations from a re-analysis of the deposited data

Results flagged for a closer look

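Each member was examined in each group for 1 library far from the other 4, by the gap to its nearest neighbour as a share of the group's range. None of the 20 groups passed Dixon's limit, where about 1 would do so by chance.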

How the results depend on the processing

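No member and no gene of the pathway lists passed the threshold under any alternative run with edgeR, DESeq2 or limma-voom. In edgeR 1 member (Erbb3) had an unadjusted p of 0.05 or less without the block and 1 (Ereg) with it. Over all genes, the count of 3 moved to 8 with edgeR and the replicate block, 16 with DESeq2 and 26 with DESeq2 and the replicate block. It was 8 without both libraries numbered 5 with the block and 0 without them and without the block, the latter an alternative added once values were known. Leaving out 1 library gave 1 to 4, and leaving out the pair numbered 1, 2, 3 or 4 with the block gave 1 or 2. Among the refitted log2 fold changes of members, 214 kept their direction and 20 turned negative, all of Tgfa, Egfr, Hbegf or Btc, whose values were at most 0.17. Tgfa was -0.0186 with upper-quartile factors, -0.0159 with library size only and -0.0021 without the filter, and ranged from -0.16 to 0.108 with libraries or pairs left out. With Alb as a covariate Ereg was 0.31, Areg 0.31, Hbegf -0.10, Tgfa 0.19, Btc 0.0712, Nrg1 0.0582, Egfr 0.0369, Erbb2 0.0757 and Erbb3 -0.06. Alb itself was lower with FICZ (log2 fold change -1.09), so these fits cannot separate it from the treatment. Hbegf ranged from -0.20 to 0.47 with libraries or pairs left out, Btc from -0.15 to 0.36 and Egfr from -0.0378 to 0.12. Egfr was -0.0126 without both libraries numbered 5 with the block and -0.0047 without the block. Without DMSO replicate 5 the difference of mean log2 CPM turned negative for Hbegf (exact permutation p = 0.881) and Btc (p = 0.984). Epgn, Nrg3 and Erbb4 were under the filter on low counts and were not tested.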

Other observations

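The genes whose log2 CPM, centred over the 10 libraries, lay closest to that of Ereg were Thbs1, Sema7a and Hmox1, with root-mean-square differences of 0.225, 0.246 and 0.254 (log2). The SD of Ereg itself was 0.866. Thbs1 encodes the matrix protein thrombospondin 1, Sema7a a membrane-anchored semaphorin and Hmox1 a heme oxygenase. Closest to Areg were Adh7, Slc7a11 and Slc22a3 (0.291, 0.319 and 0.324), the genes of an alcohol dehydrogenase, a cystine transporter subunit and an organic cation transporter. Closest to Hbegf were Kcnh1, Ankrd1 and Gata3 (0.189, 0.202 and 0.204). These distances cover the same 10 libraries, so the difference between FICZ and DMSO was part of the choice, and no test was made of them.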
